A study of Mus musculus with 4 samples.

Results

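Cells divide when cyclin-dependent kinases (CDKs), switched on by their cyclin partners, phosphorylate the retinoblastoma protein and its relatives, which then release the E2F transcription factors. A group of small proteins, the CDK inhibitors, holds these kinases in check. The Cip/Kip inhibitors p21 (Cdkn1a), p27 (Cdkn1b) and p57 (Cdkn1c) bind cyclin-CDK complexes of several kinds, whereas the INK4 inhibitors p16 (Cdkn2a), p15 (Cdkn2b), p18 (Cdkn2c) and p19Ink4d (Cdkn2d) bind the D-cyclin kinases CDK4 and CDK6. Cdkn1a is the best known transcriptional target of p53 in cell cycle arrest, and the retinoblastoma relatives p107 (Rbl1) and p130 (Rbl2) form the DREAM repressor complex through which p21 lowers genes of mitosis.

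The genes described here are the 7 CDK inhibitors and the 3 pocket proteins Rb1, Rbl1 and Rbl2, taken by symbol, and all 10 were found among the 24346 genes of the deposited table. The study measured RNA in endothelial cells purified by flow cytometry from hearts of young mice with a C57BL/6 background and not cultured before extraction. The ECp53KO group, whose name together with the series title is taken to mean loss of p53 from endothelial cells, holds libraries ECp53KO_170 and ECp53KO_172, and the wild-type group holds Ctrl_178 and Ctrl_182. No label states the driver of the deletion, the deleted exons, the age in weeks or whether a library came from 1 mouse, so the p-values measure the spread between these libraries only.

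Levels are FPKM as deposited, that is, fragments scaled by transcript length and by depth, so levels can be compared between genes. Depth was estimated from the mode of FPKM times transcript length among low genes. It was about 11400000 fragments in ECp53KO_170 and 9900000 in ECp53KO_172, against 11000000 in Ctrl_178 and 22500000 in Ctrl_182. Trp53, the targeted gene, stood at 4.41 and 2.45 FPKM in ECp53KO, against 52.1 and 28.8 FPKM in Ctrl, which is the direction that the labels give. The 10 endothelial markers summed to 5651 and 5100 FPKM in ECp53KO, against 5055 and 4961 FPKM in Ctrl. The 8 leukocyte markers summed to 4.56 and 3.11 FPKM in ECp53KO, against 8.16 and 5.07 FPKM in Ctrl, with Cd3e listed at 0 in all 4 libraries and Cd68 at 0.702 and 0.307 FPKM in ECp53KO, against 4.31 and 1.08 FPKM in Ctrl. ECp53KO_170 stood apart in its erythroid markers, which summed to 410.5 FPKM there, against 89.3 FPKM in ECp53KO_172 and 60.3 and 33.5 FPKM in Ctrl. In bulk RNA, a change in the share of cells that express a gene and a change in RNA per cell cannot be told apart.

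RefSeq gives Cdkn1a a pair of transcript starts on chromosome 17, and the 250 bases before each are printed first because this is the member whose window matched the p53 consensus. In the window of the first start, chr17:29090729-29090978 on the plus strand of GRCm38.p6, capitals mark a match to the full p53 consensus of 20 letters with 1 mismatch, which lies 51 to 32 bases before the start. In the window of the second, chr17:29093519-29093768, plus strand, capitals mark 2 GC boxes, GGGCGG, the motif bound by Sp1. The window of Cdkn2b (chr4:89311033-89311282, minus strand) is shown because its transcript was the one member with higher levels in both ECp53KO libraries than in either Ctrl library, and its capitals mark the cell cycle homology motif TTTGAA on the other strand. The window of Rbl1 (chr2:157204535-157204784, minus strand) holds in capitals 1 E2F motif, TTTCGCG, 18 to 12 bases before the start.
Cdkn1a, first start: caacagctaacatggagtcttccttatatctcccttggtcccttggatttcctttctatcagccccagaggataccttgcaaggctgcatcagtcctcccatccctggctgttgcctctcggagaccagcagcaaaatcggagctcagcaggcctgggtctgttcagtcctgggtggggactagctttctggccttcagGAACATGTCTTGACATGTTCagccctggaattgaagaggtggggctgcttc
Cdkn1a, second start: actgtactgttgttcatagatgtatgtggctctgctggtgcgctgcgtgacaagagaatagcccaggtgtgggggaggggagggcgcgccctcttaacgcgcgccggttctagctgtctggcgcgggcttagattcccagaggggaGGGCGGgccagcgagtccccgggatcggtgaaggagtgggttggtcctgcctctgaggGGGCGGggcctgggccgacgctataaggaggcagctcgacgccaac
Cdkn2b: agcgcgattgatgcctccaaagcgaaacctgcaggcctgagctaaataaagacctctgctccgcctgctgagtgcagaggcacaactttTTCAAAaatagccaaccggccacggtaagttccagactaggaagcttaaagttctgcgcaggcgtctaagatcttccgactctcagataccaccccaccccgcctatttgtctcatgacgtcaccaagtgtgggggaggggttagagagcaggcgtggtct
Rbl1: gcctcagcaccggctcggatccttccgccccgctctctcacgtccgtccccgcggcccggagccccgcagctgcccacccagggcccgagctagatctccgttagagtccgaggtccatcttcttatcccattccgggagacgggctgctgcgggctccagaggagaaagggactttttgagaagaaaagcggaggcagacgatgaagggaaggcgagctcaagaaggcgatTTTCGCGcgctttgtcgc

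The p53 consensus, searched on both strands with up to 1 mismatch and no spacer, was found in 25 of 32851 windows of this length in the RefSeq table (0.0761%), and in 1 of the 11 windows of the 8 members that matched the table. The E2F motif, searched as TTTCGCG or TTTGGCG on both strands, was in 1.93% of all windows and in those of Rbl1 and of 1 of the Cdkn2c starts. TTTGAA was in 16.0% of all windows and in those of Cdkn2b and Rbl2, and the GC box, which overlaps none of the other marked motifs here, in 32.7%. These matches describe letters in a window and were not tested against binding.

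The members spanned 3 orders of level. Cdkn1a had the highest mean over the 4 libraries, 484 FPKM, which ranked 214 among all genes of the table. Cdkn1c followed at 131 FPKM, Cdkn1b at 40.1, Cdkn2d at 29.0 and Rb1 at 16.8 FPKM, and the ranges of each of these over the 4 libraries did not overlap that of the next. Cdkn2c (8.24 FPKM), Rbl2 (8.16 FPKM) and Rbl1 (7.16 FPKM) had ranges that overlapped one another. Cdkn2b, at 0.995 FPKM, and Cdkn2a, at 0.329 FPKM, were lowest, with overlapping ranges, and both lay under the minimum mean of 1 FPKM used for testing, Cdkn2b narrowly so. The cells thus held mostly Cip/Kip transcripts among their inhibitors, with the INK4 group at 6.41% and 6.21% of the summed inhibitor FPKM in ECp53KO, against 5.50% and 4.61% in Ctrl. The INK4 sum itself was 39.6 and 35.2 FPKM in ECp53KO, against 39.1 and 40.6 FPKM in Ctrl, which overlap.

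Between genotypes, none of the 8 tested members passed the test, limma on log2(FPKM + 1) with Benjamini-Hochberg adjustment over all 11332 tested genes at a threshold of 0.05 (limma adjusted p from 0.864 to 0.969). Over all tested genes, 0.0882% were called lower and 0.0265% higher, so that calls were rare everywhere. At an unadjusted limma p under 0.05, 1 member was lower, Cdkn1a, and 0 were higher, against 2.82% and 1.97% of all tested genes. Of the 8, 2 had both ECp53KO values below both Ctrl values (Cdkn1a and Cdkn2c) and 0 were higher, against 16.8% and 19.1% of all tested genes. The median log2 difference of the 8 was -0.042, against 0.012 over all tested genes.

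**Figure D1:**
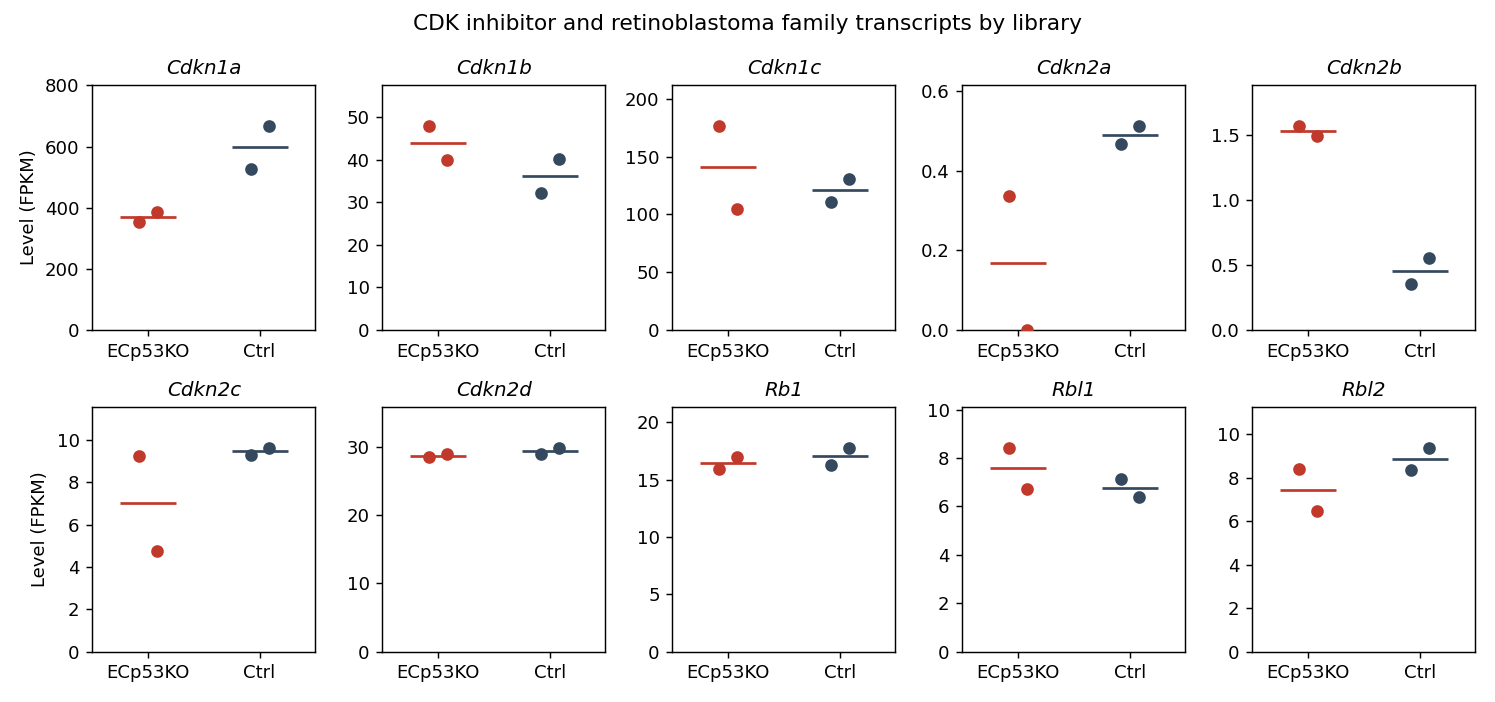
Level of each gene in FPKM (vertical axis, linear, from 0, with its own scale in each panel) in the 2 ECp53KO and 2 Ctrl libraries; points are libraries and bars are group means. Cdkn1a (353 and 387 FPKM in ECp53KO, 528 and 668 FPKM in Ctrl) and Cdkn2b (1.57 and 1.49 FPKM in ECp53KO, 0.356 and 0.555 FPKM in Ctrl) show groups that are apart in opposite directions, while the points of Cdkn2d and Rb1 lie close together.

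Of the Cip/Kip inhibitors, only Cdkn1a was separated by genotype, without passing adjustment. Cdkn1a, which encodes p21 and lies at chr17:29090979-29100722, had levels of 353 and 387 FPKM in ECp53KO_170 and ECp53KO_172, against 528 and 668 FPKM in Ctrl_178 and Ctrl_182. Both ECp53KO libraries were below both Ctrl libraries, yet the transcript remained abundant in them, since the ECp53KO mean of 370 ± 24.3 FPKM was 0.619 times the Ctrl mean of 598 ± 99.0 FPKM (SD, n = 2 each). The log2 difference was -0.68 ± 0.23 (SE), with a 95% interval of -1.27 to -0.097 and limma p-values of 0.0301 unadjusted and 0.864 adjusted. Trp53 itself, in the same libraries, had a log2 difference of -3.20 ± 0.36 and an adjusted limma p of 0.146, so the deleted gene did not pass either. Its Benjamini-Hochberg adjusted limma p was 0.0127 without small RNA loci, 0.0412 with robust shrinkage and 0.0208 with Xist as a covariate, fits in which no member passed, and ran up to 0.620 over the alternatives.

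Libraries were also set side by side by Xist, the X-linked RNA of female cells. Because the Cdkn1a groups do not overlap, any pairing gives the same direction, so the pairs show only the size. Of the libraries with Xist above 1 FPKM, ECp53KO_172 had 0.580 times the Cdkn1a level of Ctrl_182, and of those without it ECp53KO_170 had 0.669 times the level of Ctrl_178. The unadjusted limma p was 0.0702 and 0.0414 on leaving out ECp53KO_170 or ECp53KO_172, and 0.0731 and 0.198 on leaving out Ctrl_178 or Ctrl_182. The log2 difference ran from -0.51 without Ctrl_182 to -0.85 without Ctrl_178.

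Cdkn1b, which encodes p27 (chr6:134920401-134925525), stood at 48.0 and 39.9 FPKM in ECp53KO, against 32.2 and 40.3 FPKM in Ctrl. The groups overlapped, and the log2 difference was 0.27 ± 0.19 (SE), with a 95% interval of -0.21 to 0.76. It was 0.14 and 0.40 on leaving out ECp53KO_170 or ECp53KO_172, and 0.12 and 0.43 on leaving out Ctrl_178 or Ctrl_182. Cdkn1c encodes p57 and is an imprinted gene expressed from the maternal allele (chr7:143458339-143461059). It stood at 177 FPKM in ECp53KO_170 and 104 FPKM in ECp53KO_172, against 111 and 130 FPKM in Ctrl, so that the ECp53KO libraries were the highest and the lowest of the 4. Its log2 difference of 0.17 ± 0.29 turned to -0.20 without ECp53KO_170, the library with the highest erythroid sum and with a cardiomyocyte marker sum of 268 FPKM, against 166 FPKM in ECp53KO_172 and 164 and 148 FPKM in Ctrl. All 5 tested erythroid markers and 5 of 6 tested cardiomyocyte markers were above 0 in log2 difference. Without overlap, 5 erythroid markers but only 1 cardiomyocyte marker were higher. The erythroid Hbb-bs reached the filter through ECp53KO_170, at 66.9 FPKM there, against 0.0221 FPKM in ECp53KO_172 and 0.0136 and 0.00621 FPKM in Ctrl. The part of erythroid cells and cardiomyocytes in the Cdkn1c level was not tested.

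Because Cdkn1a dominated the inhibitors, the summed inhibitor FPKM differed along with it. The 7 inhibitors summed to 617 and 567 FPKM in ECp53KO, against 710 and 879 FPKM in Ctrl. Without Cdkn1a the sum was 264 and 180 FPKM in ECp53KO, against 182.3 and 211 FPKM in Ctrl, which overlap. Cdkn1a made up 57.2% and 68.3% of the inhibitor sum in ECp53KO, against 74.3% and 76.0% in Ctrl. The ratio of Cdkn1a to Cdkn1b, which does not depend on how a library is scaled, was 7.35 and 9.72 in ECp53KO and 16.4 and 16.6 in Ctrl. These sums and ratios describe the libraries and were not tested.

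**Figure D2:**
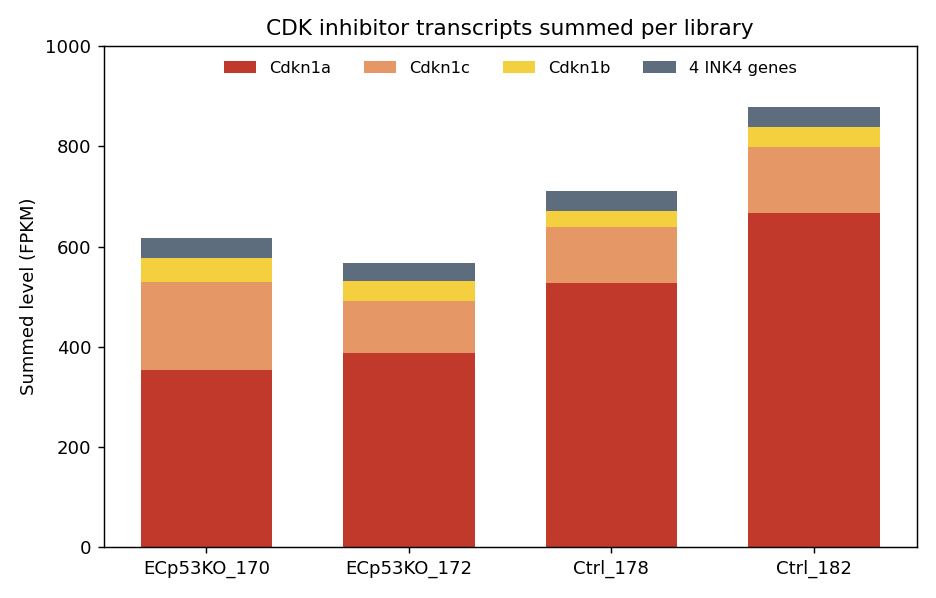
Summed FPKM of the CDK inhibitors (vertical axis, from 0) in each library, with Cdkn1a, Cdkn1c, Cdkn1b and the 4 INK4 genes stacked from the bottom. The totals are 617 and 567 FPKM in ECp53KO, against 710 and 879 FPKM in Ctrl, and the Cdkn1a block is the one that is smaller in both ECp53KO libraries.

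The INK4 inhibitors had lower levels, and no common direction between the genotypes. Cdkn2d, which encodes p19Ink4d (chr9:21288459-21291421), was the main INK4 transcript, at 28.4 and 29.0 FPKM in ECp53KO, against 28.9 and 29.9 FPKM in Ctrl. The highest of its 4 values was 1.05 times the lowest, and its log2 difference was -0.035, with a 95% interval of -0.39 to 0.32. Cdkn2c, which encodes p18 (chr4:109660876-109666756), stood at 9.25 FPKM in ECp53KO_170 and 4.75 FPKM in ECp53KO_172, against 9.29 and 9.65 FPKM in Ctrl. The gap rests on ECp53KO_172, since the log2 difference of -0.45 ± 0.30 (SE) was -0.030 without that library and -0.86 without ECp53KO_170. The unadjusted limma p-values of those fits were 0.861 and 0.0101.

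Cdkn2b, which encodes p15 (chr4:89306289-89311032), stood at 1.57 and 1.49 FPKM in ECp53KO, against 0.356 and 0.555 FPKM in Ctrl. Both ECp53KO libraries were above both Ctrl libraries, the opposite order to Cdkn1a. Of the genes that reached the filter, 19.1% were also higher without overlap. From the estimated depth and its single annotated transcript these levels stand for about 25 and 20.5 fragments in ECp53KO and about 5.43 and 17.4 fragments in Ctrl. The ECp53KO mean of 1.53 ± 0.0564 FPKM was 3.37 times the Ctrl mean of 0.456 ± 0.141 FPKM (SD, n = 2 each). In a fit without the filter on low values the log2 difference was 0.80 ± 0.14 (SE), with a 95% interval of 0.42 to 1.18 and limma p-values of 0.00402 unadjusted and 0.853 adjusted. Of the 16809 genes in that fit, 365 were higher and 541 lower at an unadjusted limma p under 0.05. The Cdkn2b difference was 0.78 and 0.83 on leaving out ECp53KO_170 or ECp53KO_172, and 0.70 and 0.90 on leaving out Ctrl_178 or Ctrl_182. The ratio of ECp53KO to Ctrl was 2.69 in the pair with Xist above 1 FPKM and 4.42 in the other. The direction in each pair was fixed by the lack of overlap.

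Of the pericyte and smooth muscle markers, 7 of 7 tested were above 0 in log2 difference, against 51.7% of all tested genes. Only 3 of the 7 were higher in ECp53KO without overlap, against 19.1% of all tested genes. The 8 listed markers summed to 153 and 127 FPKM in ECp53KO, against 83.5 and 104 FPKM in Ctrl. None of these markers was listed at 0 in any library, and their part in the level of Cdkn2b was not tested.

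Cdkn2a encodes p16Ink4a and, from another first exon and reading frame, p19Arf, the protein that protects p53 from Mdm2, and the gene-level value does not separate them. It lies 11669 bases from Cdkn2b, at chr4:89274473-89294619. It was at 0.337 FPKM in ECp53KO_170 and was listed at 0 in ECp53KO_172, against 0.468 and 0.512 FPKM in Ctrl, without overlap. On its longest transcript these values stand for about 3.45 fragments in ECp53KO_170 and about 4.59 and 10.3 fragments in Ctrl_178 and Ctrl_182. In the fit without a filter the log2 difference was -0.37 ± 0.16 (SE), with limma p-values of 0.0838 unadjusted and 0.853 adjusted. It was -0.58 and -0.16 on leaving out ECp53KO_170 or ECp53KO_172, so its size rests on the library listed at 0.

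**Figure D3:**
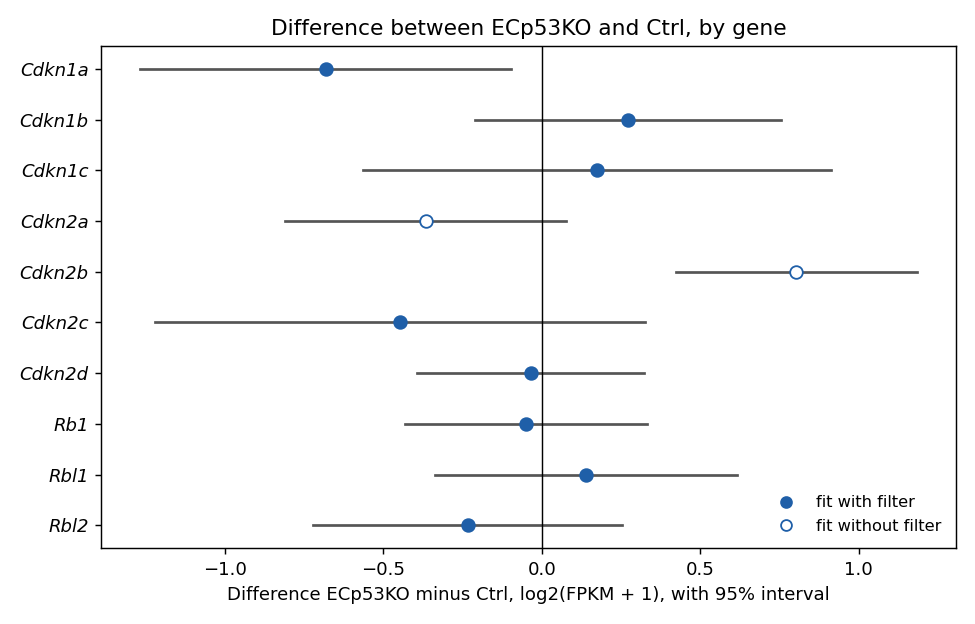
Log2 difference between ECp53KO and Ctrl for each gene (horizontal axis, ECp53KO minus Ctrl on the log2(FPKM + 1) scale) with its 95% limma interval, unadjusted for the number of genes. Filled points come from the fit with the filter and open points, Cdkn2a and Cdkn2b, from the fit without it; the intervals of Cdkn1a (-1.27 to -0.097) and Cdkn2b (0.42 to 1.18) do not include 0.

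None of the pocket proteins separated the genotypes. Rb1, which encodes the retinoblastoma protein (chr14:73192858-73325951), stood at 15.9 and 17.0 FPKM in ECp53KO, against 16.3 and 17.8 FPKM in Ctrl. Its groups overlapped, and its log2 difference of -0.049 had a 95% interval of -0.43 to 0.33. Rbl1, which encodes p107 and is itself a known E2F target (chr2:157145893-157204534), stood at 8.43 and 6.71 FPKM in ECp53KO, against 7.14 and 6.37 FPKM in Ctrl, with an interval of -0.34 to 0.62. Rbl2, which encodes p130, the pocket protein that predominates in resting cells (chr8:91070057-91123844), stood at 8.41 and 6.48 FPKM in ECp53KO, against 8.36 and 9.39 FPKM in Ctrl, with an interval of -0.72 to 0.26. Its log2 difference of -0.23 was -0.40 on leaving out ECp53KO_170 and -0.067 on leaving out ECp53KO_172. The sum of the 3 was 32.8 and 30.2 FPKM in ECp53KO, against 31.8 and 33.6 FPKM in Ctrl, of which Rb1 made up between 48.6% and 56.3% in each library. The intervals leave room for differences up to their bounds.

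The genes on which these proteins act were read from lists of 15 cyclins and kinases, 10 E2F and DP factors and 8 DREAM and MuvB genes. By limma 0 genes of these lists, or of the 4 further lists below, passed over all genes in either direction. Of 12 tested cyclins and kinases, 6 were below and 6 above 0 in log2 difference, with a median of 7.55e-05. Without overlap, 3 were lower and 3 higher, against 16.8% and 19.1% of all tested genes. At an unadjusted limma p under 0.05, 3 were lower and 0 higher (2.82% and 1.97% of all tested genes were). They were Ccna2, the S and G2 phase cyclin, at 2.73 ± 0.292 FPKM in ECp53KO, against 7.22 ± 1.75 FPKM in Ctrl, Cdk1, the mitotic kinase, at 1.80 ± 0.102 FPKM in ECp53KO and 4.89 ± 1.62 FPKM in Ctrl, and Cdk2, the partner of cyclins E and A, at 15.4 ± 1.03 FPKM in ECp53KO and 22.5 ± 0.967 FPKM in Ctrl (SD, n = 2 each). The D cyclins that INK4 proteins oppose were abundant, with Ccnd1 at 111 and 106 FPKM in ECp53KO, against 204 and 67.1 FPKM in Ctrl, so that the Ctrl libraries were the highest and the lowest. Ccnd3 was at 90.1 and 105 FPKM in ECp53KO, against 143 and 103 FPKM in Ctrl.

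Among 8 tested E2F and DP genes, 2 were lower and 0 higher at an unadjusted limma p under 0.05 (2.82% and 1.97% of all tested genes were). E2f1, an activator of S phase genes, stood at 0.940 and 1.36 FPKM in ECp53KO, against 4.29 and 2.30 FPKM in Ctrl, and E2f7, a repressor that p53 is known to induce, at 1.42 and 1.56 FPKM in ECp53KO, against 2.83 and 2.91 FPKM in Ctrl. E2f4, the E2F partner of p130 in DREAM, stood at 29.4 and 38.6 FPKM in ECp53KO, against 35.3 and 35.3 FPKM in Ctrl. Of 7 tested DREAM and MuvB genes, 1 was lower and 0 higher at that p. It was Foxm1, an activator of mitotic genes, at 1.08 and 1.35 FPKM in ECp53KO, against 3.77 and 2.88 FPKM in Ctrl. Without overlap, 1 of the 7 was lower, Foxm1, and 2 were higher, Lin9 and Rbbp4, against 16.8% and 19.1% of all tested genes. The MuvB core genes Lin9 (2.75 and 2.75 FPKM in ECp53KO, 1.78 and 2.60 FPKM in Ctrl) and Lin37 (17.4 and 14.1 FPKM in ECp53KO, 17.6 and 15.7 FPKM in Ctrl) had adjusted limma p-values of 0.872 and 0.938, and Rbbp4, a histone-binding MuvB subunit, was at 37.1 ± 1.54 FPKM in ECp53KO and 34.7 ± 0.547 FPKM in Ctrl.

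Transcripts that E2F and DREAM regulate were read by phase, G2/M genes first. All 11 tested G2/M genes had a log2 difference below 0, 9 of them at an unadjusted limma p under 0.05 (2.82% of all tested genes), with a median of -1.12. This list was chosen with earlier results of these data known, so its counts describe these libraries and are no independent test. The other genes of this list of 16 had a mean under 1 FPKM and were not tested. That mean covers both groups, so a gene under 1 FPKM in ECp53KO can enter through its Ctrl level, as Kif11 below did. Of the 11, 10 were lower without overlap between the groups, against 16.8% of all tested genes. Ccnb2, a mitotic cyclin, was at 3.17 ± 0.956 FPKM in ECp53KO, against 8.54 ± 1.29 FPKM in Ctrl, Top2a, the topoisomerase of dividing cells, at 1.75 ± 0.368 FPKM in ECp53KO and 5.44 ± 1.51 FPKM in Ctrl, and Kif11, a spindle motor, at 0.662 ± 0.0383 FPKM in ECp53KO and 2.76 ± 0.879 FPKM in Ctrl. Birc5, an inhibitor of apoptosis in the chromosomal passenger complex, stood at 4.03 and 1.10 FPKM in ECp53KO, against 9.39 and 5.52 FPKM in Ctrl. Summed over all 16 genes of the list, these transcripts were at 18.3 and 19.9 FPKM in ECp53KO, against 65.6 and 41.2 FPKM in Ctrl. Both tested leukocyte markers, Cd68 and Lyz2, were also below 0 in log2 difference (median -0.63). Cd68 was lower without overlap, whereas Lyz2 overlapped, at 3.05 and 2.52 FPKM in ECp53KO, against 2.88 and 3.19 FPKM in Ctrl. Csf1r, too low to be tested, went the other way, at 0.266 and 0.178 FPKM in ECp53KO, against 0.0693 and 0.0675 FPKM in Ctrl. The part of leukocytes in the level of the G2/M genes was not tested.

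The 14 tested G1/S targets were divided, 7 below and 7 above 0, with a median of -0.015. At an unadjusted limma p under 0.05, 2 were lower and 0 higher, against 2.82% and 1.97% of all tested genes. These were Tk1, a thymidine kinase, at 1.29 and 1.90 FPKM in ECp53KO, against 6.83 and 3.68 FPKM in Ctrl, and Rrm2, a ribonucleotide reductase subunit, at 1.24 and 1.42 FPKM in ECp53KO, against 5.88 and 2.36 FPKM in Ctrl. Cdt1, a replication licensing factor, was at 2.29 and 1.60 FPKM in ECp53KO, against 6.02 and 1.60 FPKM in Ctrl, which overlap. Pcna, the sliding clamp that p21 also binds, was at 119 and 93.8 FPKM in ECp53KO, against 107 and 102 FPKM in Ctrl, and the helicase subunit gene Mcm6 at 26.3 ± 2.19 FPKM in ECp53KO, against 23.3 ± 3.52 FPKM in Ctrl.

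**Figure D4:**
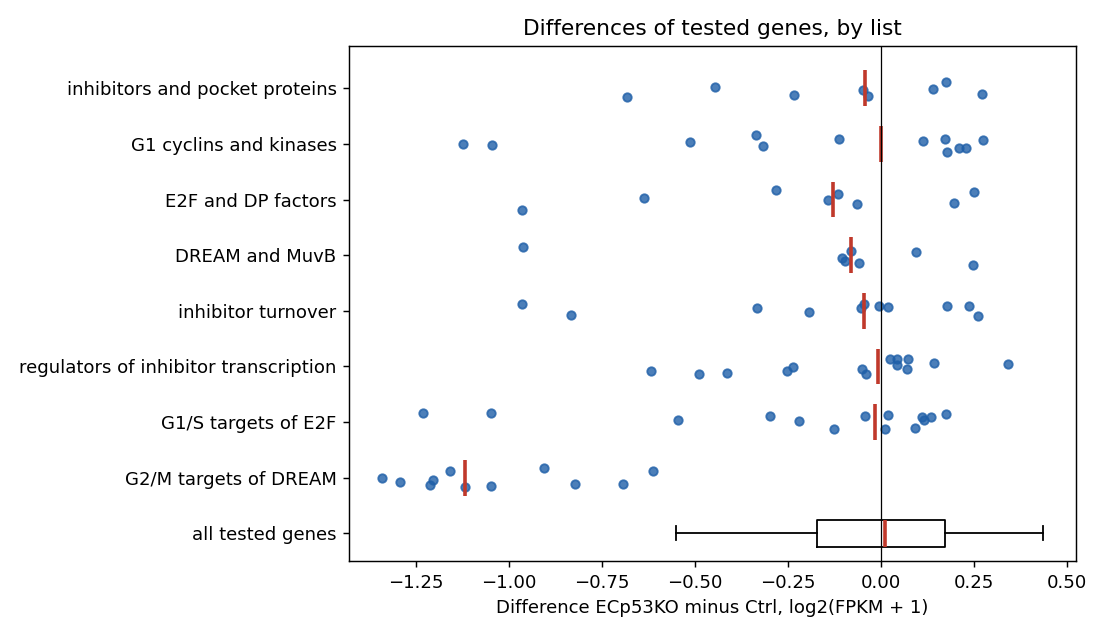
Log2 differences between ECp53KO and Ctrl (horizontal axis) of the tested genes of each list; points are genes, spread vertically for legibility, red bars are medians, and the box of all tested genes has whiskers at the 5th and 95th percentiles (-0.55 and 0.43). The 8 tested inhibitors and pocket proteins centre near 0, while all 11 tested G2/M genes lie below it.

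The genes that control the inhibitors were read from a list of turnover and a list of transcription. Of 11 tested genes of inhibitor turnover, 1 was lower and 0 higher at an unadjusted limma p under 0.05, against 2.82% and 1.97% of all tested genes. It was Cdc20, an activator of the anaphase-promoting complex, at 6.00 ± 1.13 FPKM in ECp53KO, against 12.7 ± 1.83 FPKM in Ctrl. Skp2, which recognises p27 for degradation, was at 0.921 and 0.747 FPKM in ECp53KO, against 1.30 and 1.32 FPKM in Ctrl, and its cofactor Cks1b at 6.03 and 2.03 FPKM in ECp53KO, against 10.4 and 4.93 FPKM in Ctrl. The ligase subunit genes Skp1a (99.7 ± 12.1 FPKM in ECp53KO, 87.9 ± 9.13 FPKM in Ctrl) and Ddb1 (82.2 ± 3.71 FPKM in ECp53KO, 81.2 ± 5.66 FPKM in Ctrl) were the most abundant of that list.

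Of 14 regulators of inhibitor transcription, 7 were below and 7 above 0. At an unadjusted limma p under 0.05, 1 was lower and 0 higher, against 2.82% and 1.97% of all tested genes. This was Foxo3, a forkhead activator of Cdkn1b, at 7.001 and 7.63 FPKM in ECp53KO, against 10.1 and 11.3 FPKM in Ctrl. Myc, a repressor of Cdkn1a and Cdkn2b, was at 1.63 and 1.36 FPKM in ECp53KO, against 3.56 and 2.22 FPKM in Ctrl, and Ezh2, a Polycomb enzyme that silences the Cdkn2a and Cdkn2b locus, at 3.14 ± 0.266 FPKM in ECp53KO, against 4.51 ± 0.000276 FPKM in Ctrl. Their unadjusted limma p-values were 0.0632 and 0.0723. Klf2 and Klf4, shear-responsive factors of the endothelium of which Klf4 activates Cdkn1a, were the most abundant, with Klf2 at 601 ± 20.02 FPKM in ECp53KO and 628 ± 115 FPKM in Ctrl, and Klf4 at 257 ± 20.3 FPKM in ECp53KO and 309 ± 84.8 FPKM in Ctrl.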

How the data were processed

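RNA from 4 libraries (2 ECp53KO, 2 Ctrl) was prepared with a non-stranded kit that selects polyadenylated RNA, per the labels' protocols, so reads of overlapping antisense genes cannot be told apart. Cufflinks 2.2.1, TopHat2 2.1.0, Trimmomatic 0.36, FastQC 0.11.5, bcl2fastq 2.17 and the build mm10 appear, without roles, in the submitters' processing notes. No source here names the annotation. The authors deposited gene FPKM, a scaled unit to which count models were not applied.

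Values were analysed as log2(FPKM + 1) in the 11332 genes whose mean reached 1 FPKM, with limma 3.58.1 in R 4.3.3 (intensity trend, 2 residual and 3.15 prior degrees of freedom, two-sided, no covariate). Fold changes on this scale understate those of low genes. The code was tested on simulated data. With 2 against 2 libraries an exact permutation test cannot go below p = 0.333 and was not used. Fragment numbers use the mode of FPKM times length over 1037 low genes with 1 GENCODE M21 transcript, and are approximate. Gene positions and promoter windows are RefSeq's for GRCm38.p6, the assembly that browsers call mm10.

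Every member was named, as were, in each list, up to 3 genes with the smallest p and 2 with the highest mean. Members and lists were chosen with earlier results of these data known, and 1 erythroid marker is not reported here.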

Additional observations from a re-analysis of the deposited data

How the results depend on the processing

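No member passed limma's adjusted threshold in any alternative run. No paired analysis was possible because ECp53KO and Ctrl have no replicate number in common; a fit with the Xist class (over or under 1 FPKM) as covariate, where each class holds 1 library of each group, called 13 genes lower and 2 higher and gave Cdkn1a an unadjusted limma p of 0.0453. Leaving out a library moved Cdkn1b between 0.12 and 0.43 and Rbl2 between -0.40 and -0.067, and turned the sign of members near 0: the log2 difference ran from -0.20 to 0.55 for Cdkn1c, from -0.11 to 0.011 for Rb1 and from -0.0057 to 0.28 for Rbl1. In place of 3 genes called higher over the whole table, there were 5 with a pseudocount of 0.1, 5 with robust shrinkage and 1 without the filter, and in place of 10 lower there were 4 without small RNA loci; leaving out a library gave 1 to 21 higher and 12 to 58 lower. Where an arm had 1 library, it was assumed to vary like the other group. Rescaling to TPM moved the median of all genes from 0.012 to -0.095 and the share of genes above 0 from 51.7% to 35.3%; relative to that median the Cdkn1a difference was -0.70. Of the genes at an unadjusted p under 0.05, 350 were then lower and 102 higher, against 319 and 223 as first scaled. The excess of ECp53KO_170 over the mean of the other libraries was smaller for longer transcripts (Spearman's rho -0.39, a description across genes), and with each library's length trend removed, an alternative chosen after seeing the data, Cdkn1a was at -0.74 and Cdkn1c at 0.10. With a pseudocount of 0.1 and no filter, also chosen after seeing the data, Cdkn2b was at 1.58 and Cdkn2a at -1.50. Cdkn2a and Cdkn2b rest on few fragments.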

Other observations

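The protein-coding gene next to Cdkn2a on the side away from Cdkn2b is Mtap, which encodes an enzyme of methionine salvage (chr4:89137370-89181090). Mtap stood at 16.1 and 10.1 FPKM in ECp53KO, against 8.46 and 7.56 FPKM in Ctrl. As for Cdkn2b, both ECp53KO libraries were above both Ctrl libraries, which held for 19.1% of all tested genes. Cdkn2a, which lies between them, went the other way, at 0.337 and 0 FPKM in ECp53KO, against 0.468 and 0.512 FPKM in Ctrl. The log2 difference of Mtap was 0.61 ± 0.25 (SE, n = 2 each), with limma p-values of 0.0575 unadjusted and 0.864 adjusted. Dmrta1, the next protein-coding gene beyond Cdkn2b, was at 0.0631 and 0.0242 FPKM in ECp53KO, against 0.0219 and 0.0853 FPKM in Ctrl. Mtap and Dmrta1 were looked at because they flank the locus.

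The genes whose pattern over the 4 libraries came closest to that of Cdkn1a, by the root mean square difference of centred log2(FPKM + 1) among 11102 genes, were Zfp771 (0.034), Znf512b (0.035) and the uncoupling protein gene Ucp2 (0.043), where a flat profile would differ by 0.36. Ucp2 stood at 152 and 158 FPKM in ECp53KO, against 218 and 293 FPKM in Ctrl. With 4 libraries, such likeness is a description. Within the pocket proteins, the ratio of Rbl1 to Rbl2 was 1.002 and 1.04 in ECp53KO and 0.853 and 0.678 in Ctrl, without overlap and not tested. Each of these genes overlapped between the groups on its own. Among all tested genes, taken singly, 16.8% were lower and 19.1% higher without overlap.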
